A study of Schizosaccharomyces pombe with 8 samples.

Results

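The 6 fission yeast genes followed here were *top1*, *top2* and *top3*, which encode the DNA topoisomerases, *rqh1* and *rmi1*, which encode the partners of Top3, and *tdp1*, which encodes an enzyme that repairs DNA bound by a trapped topoisomerase. They were taken by gene name from the deposited table, where all 6 were found among 5165 genes, and all 6 passed the minimum mean of 10 normalized counts that left 5019 genes for testing. The question was how these genes were expressed when Top1 was missing and when cells met H2O2. Values came from 4 groups of 2 libraries, namely wild-type cells (strain 972, no deletion) and Δ*top1* cells (strain RF14, with almost the whole *top1* reading frame deleted), each either untreated or exposed to 1 mM H2O2 for 30 min. All cultures grew in rich YE5S medium. Δ*top1* was sequenced as 1 strain, so a difference between the strains cannot be told apart from any other change that RF14 carries.

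Topoisomerases relieve the twisting of DNA that builds up ahead of and behind moving polymerases. Top1 nicks a single strand and lets it turn, and it travels with transcription. Top2, which is essential in fission yeast, passes one duplex through another and untangles sister chromosomes before they separate. Top3 acts with the RecQ family helicase Rqh1 and with Rmi1, which stabilises the complex, to take apart joined DNA molecules left by recombination and stalled replication. Tdp1 removes the peptide left on DNA when Top1 is caught in the act of cutting.

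The libraries held between 16090015 and 19899720 reads on genes, and 1 read was worth between 0.815 and 1.242 normalized counts, so every member rested on at least 39 reads in each library. Treatment labels were checked with 5 genes that H2O2 is known to induce (*ctt1*, *srx1*, *gpx1*, *hsp9* and *gpd1*), and 5 of 5 rose in each strain, with log2 changes between 2.24 and 5.48. The study lists both strains as h-, the mating type of M cells. Of 5 M-cell genes *mam1* was read at 560 to 1046 normalized counts, *mam2* at 27.3 to 93.6 and *mfm2* at 43.5 to 587, with 111 and 587 in the 2 untreated wild-type libraries, whereas the pheromone genes *mfm1* and *mfm3* stayed at 3.26 to 16.6 and 3.77 to 18.5 normalized counts. The P-cell genes *map2* and *map3* were read at 59.9 to 136 and 88.2 to 331 normalized counts. All values are relative to the mRNA of their library, so that fewer molecules per cell and a smaller share of the mRNA cannot be told apart. The labels do not say whether the 2 replicates came from separate cultures, which the study's methods call biological replicates, and p-values measure only the spread between these libraries.

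The deleted gene was read first. In untreated wild-type cells *top1* (SPBC1703.14c, chromosome II) had 1967 and 2150 normalized counts, and in treated wild-type cells 2013 and 2513. In Δ*top1* cells it had 309 and 286 untreated and 244 and 244 treated, well below every wild-type library. The strain difference was -2.79 on the log2 scale without stress (SE 0.12, adjusted p = 1.5e-05, limma) and -3.20 with it (SE 0.12, adjusted p = 6.2e-06, limma). The reads that stayed in Δ*top1* amounted to 15.0% and 13.9% of the wild-type mean in untreated cells and to 10.8% in each treated replicate. For comparison, 319 of the 2764 bases of the annotated transcript (11.5%) lie outside the coding sequence, but where on the transcript the remaining reads fell was not tested. In wild-type cells H2O2 left *top1* without a detectable change (log2 0.13, 95% interval -0.15 to 0.40, adjusted p = 0.368, limma), and the replicates of the 2 conditions overlapped. That value turned to -0.24 when libraries were rescaled to the same total and to -0.031 without the second treated wild-type replicate, and without the first it was 0.29 and passed the threshold (adjusted p = 0.0676, limma).

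**Figure D1:**
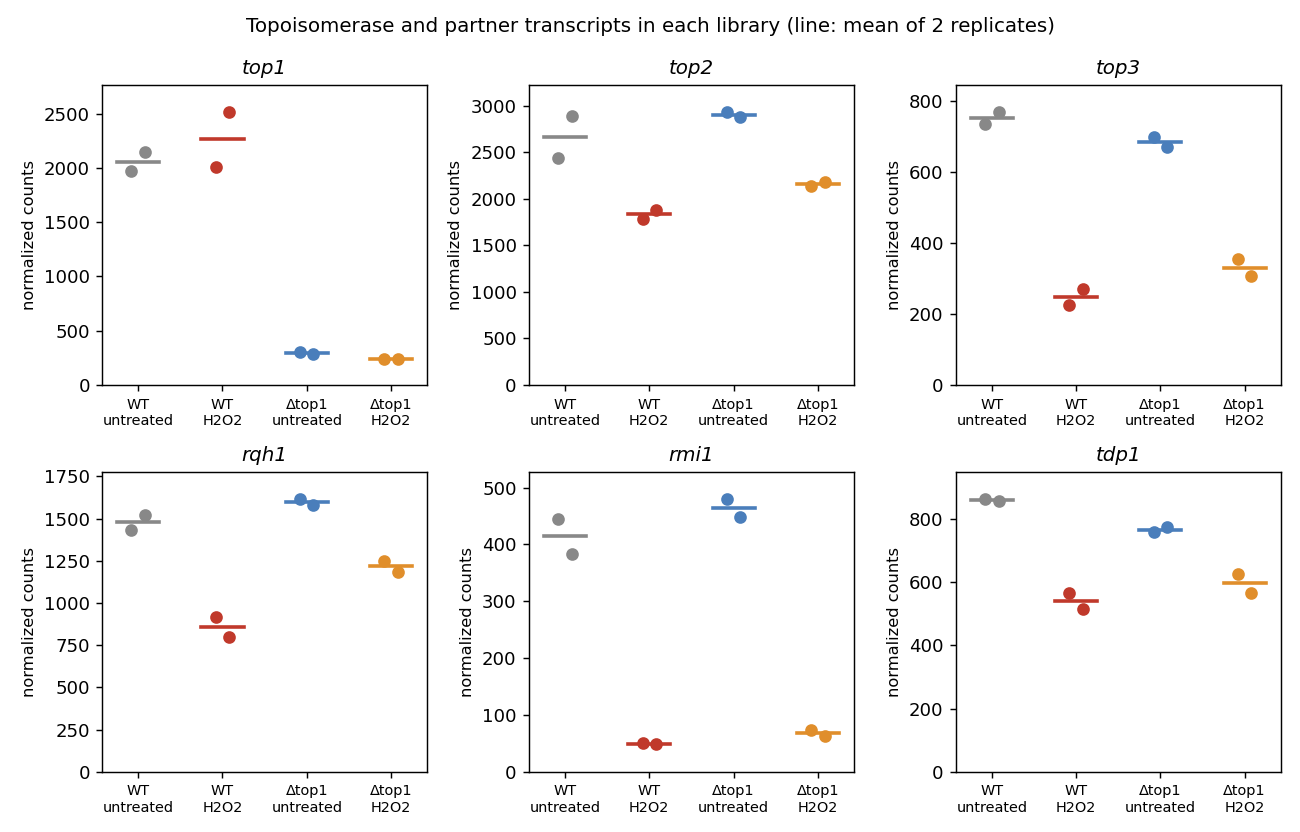
Normalized counts (y axis, from 0) of the 6 genes in each library, grouped on the x axis by strain and treatment, with 1 point per library and a line at the mean of 2 replicates. *top1* is low in the 4 Δ*top1* libraries at 244 to 309 normalized counts, and *rmi1* is low in the 4 treated libraries at 48.4 to 73.5 normalized counts.

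The other topoisomerases fell with H2O2. *top2* (SPBC1A4.03c, chromosome II) went from 2435 and 2887 normalized counts to 1786 and 1883 in wild-type cells. In Δ*top1* it went from 2928 and 2874 to 2138 and 2175. The treated and untreated libraries did not overlap in either strain, and the falls were moderate, at 1.45-fold in wild-type (log2 -0.53, SE 0.09, adjusted p = 0.00117, limma) and 1.34-fold in Δ*top1* (log2 -0.43, adjusted p = 0.00397, limma). How many of all genes H2O2 separated without overlap was not counted, which holds also for the genes described next.

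*top3* (SPBC16G5.12c, chromosome II) fell further. Its 735 and 768 normalized counts in untreated wild-type cells became 226 and 271 after H2O2. In Δ*top1* the 699 and 670 normalized counts of untreated cells became 354 and 306. Both drops were larger than the spread between replicates and passed the 2-fold limit, at 3.03-fold in wild-type (log2 -1.60, SE 0.12, adjusted p = 1.0e-05, limma) and 2.07-fold in Δ*top1* (log2 -1.05, SE 0.12, adjusted p = 0.000111, limma). Among all genes tested, 179 had a lower log2 change than *top3* in wild-type cells and 491 had a lower one in Δ*top1*.

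The helicase gene *rqh1* (SPAC2G11.12, chromosome I) fell by less than *top3*, whose product it works with. Wild-type cells had 1433 and 1522 normalized counts untreated and 919 and 798 treated. Δ*top1* cells had 1617 and 1581 untreated and 1251 and 1183 treated. The fall was 1.72-fold in wild-type (log2 -0.79, SE 0.09, adjusted p = 0.000117, limma) and 1.31-fold in Δ*top1* (log2 -0.39, adjusted p = 0.00572, limma), with no overlap between treated and untreated libraries. In both strains its 95% interval lay above that of *top3*, which ended at -1.31 in wild-type and at -0.77 in Δ*top1*.

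The steepest fall of the 6 genes was that of *rmi1* (SPAC26A3.03c, chromosome I). It had 445 and 383 normalized counts in untreated wild-type cells and only 50.1 and 48.4 after H2O2, which are 46 and 39 reads. In Δ*top1* its 480 and 447 normalized counts became 73.5 and 62.3, from 67 and 56 reads. Every treated library stood far below every untreated one, an 8.24-fold fall in wild-type cells (log2 -3.04, SE 0.15, adjusted p = 9.9e-07, limma) and a 6.76-fold fall in Δ*top1* (log2 -2.76, SE 0.15, adjusted p = 1.4e-06, limma). Only 16 of the 5019 genes had a lower log2 change in wild-type cells, and 22 did so in the deletion strain. The pseudocount of 1 slightly understates such a fall, since the treated values were low.

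The repair gene *tdp1* (SPCP31B10.05, chromosome III) had 863 and 855 normalized counts in untreated wild-type cells and 565 and 515 after treatment. In Δ*top1* it had 757 and 775 untreated and 624 and 566 treated. It fell 1.59-fold in wild-type (log2 -0.67, SE 0.10, adjusted p = 0.000329, limma) and 1.29-fold in Δ*top1* (log2 -0.36, adjusted p = 0.00916, limma), again without overlap.

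In wild-type cells 5 of the 6 genes were thus called lower at an adjusted p under 0.1 and none higher, where 35.6% of all genes tested were called lower and 36.4% higher. *top3* and *rmi1* also passed the 2-fold limit, as 11.3% of all genes did in the lower direction. In Δ*top1* all 6 were called lower, against a background of 34.9% lower and 35.9% higher, and the same 2 genes passed 2-fold (10.8% of all genes lower). The sixth of these was *top1* itself, whose remaining reads went from 309 and 286 to 244 and 244 normalized counts (log2 -0.28, adjusted p = 0.0651, limma); this call was lost under DESeq2 (adjusted p = 0.127) and when any 1 of the 4 Δ*top1* libraries was left out (adjusted p between 0.103 and 0.254, limma). The median log2 change of the 6 genes was -0.73 in wild-type and -0.41 in Δ*top1*, beside 0.0028 and -0.0019 over all genes. Rescaling the libraries to the same total moved the median of all genes by -0.37 in wild-type and by -0.20 in Δ*top1*, and the calls over all genes from 1826 higher and 1785 lower to 1067 and 2823 in wild-type, and from 1802 and 1753 to 1352 and 2300 in Δ*top1*. The falls of *top2*, *top3*, *rqh1*, *rmi1* and *tdp1* were called under each of the 20 alternatives run, in both strains.

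**Figure D2:**
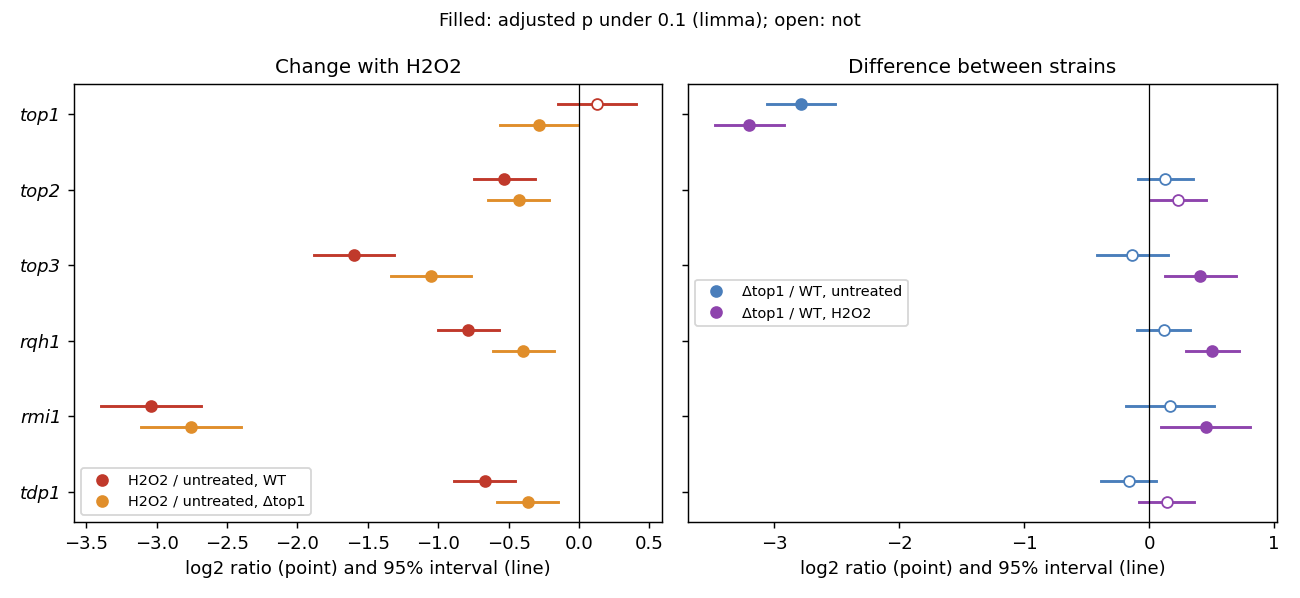
Log2 ratios from limma (x axis) of the 6 genes with their 95% intervals, for the change with H2O2 in each strain (left) and the difference between the strains in each condition (right), filled where the adjusted p was under 0.1. Apart from *top1* in wild-type cells, the points on the left lie below 0, and on the right the 5 genes other than *top1* lie between -0.17 and 0.17 untreated and between 0.14 and 0.51 treated.

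In untreated cells the deletion of *top1* was not accompanied by a detectable change in any of the other 5 genes. Their log2 differences between Δ*top1* and wild-type were 0.13 for *top2* (95% interval -0.09 to 0.35) and -0.13 for *top3* (95% interval -0.42 to 0.15). They were 0.11 for *rqh1* (95% interval -0.10 to 0.33), 0.17 for *rmi1* (95% interval -0.19 to 0.52) and -0.17 for *tdp1* (95% interval -0.38 to 0.05). The widest of these intervals, that of *rmi1*, reached from 0.877-fold to 1.43-fold, so the values do not show that the genes stayed the same. With limma 0 of the 5 were called, 0 had an unadjusted p under 0.05, and edgeR and DESeq2 on the recovered reads called 0 of the 5 as well. The background was low, with 0.279% of all genes called higher and 0.339% lower, 1 of the latter being *top1*, which was also past 2-fold (0.239% of all genes lower). Both Δ*top1* libraries lay above the wild-type range for *rqh1* (1617 and 1581 against 1433 and 1522 normalized counts) and *rmi1*. They lay below it for *top3* and *tdp1*, and across its upper end for *top2*. Such separation was not counted over all genes, and with 2 libraries per group the smallest p of an exact permutation test is 0.333.

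After H2O2 the 3 genes of the Top3 complex were read higher in the deletion strain. *rqh1* stood at 1251 and 1183 normalized counts in Δ*top1* against 919 and 798 in wild-type, which is 1.42-fold higher (log2 0.51, SE 0.09, 95% interval 0.29 to 0.72, adjusted p = 0.0112, limma), and it was called under each of the 20 alternatives. *top3* was 1.33-fold higher, at 354 and 306 against 226 and 271 normalized counts (log2 0.41, SE 0.12, adjusted p = 0.0498, limma). *rmi1* was 1.37-fold higher, at 73.5 and 62.3 against 50.1 and 48.4 (log2 0.45, SE 0.15, adjusted p = 0.0715, limma). Both Δ*top1* libraries were above both wild-type libraries for these 3 genes, and also for *top2* and *tdp1*, which were not called. How many of all genes were separated in this way was not counted. None of the 3 reached the 1.5-fold limit, which 4.86% of all genes passed in the higher direction. Rescaled to the same total, where the median of all genes was 0.16, *rqh1* at 0.66 and *rmi1* at 0.60 on the log2 scale did pass it. Relative to that median they were at 0.50 and 0.44. The share of all genes that passed the limit after this rescaling was not counted.

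The calls of *top3* and *rmi1* between the treated strains were not stable. *top3* was called under 17 of 20 alternatives and lost its call when the first treated wild-type replicate was left out (log2 0.28, adjusted p = 0.197), when the first treated Δ*top1* replicate was left out (log2 0.30, adjusted p = 0.252) and when only these 2 groups were fitted (adjusted p = 0.147, limma in each). *rmi1* was called under 11 of 20, with an adjusted p of 0.111 in edgeR and 0.217 in DESeq2. Leaving out either treated wild-type replicate, either untreated Δ*top1* replicate or the first treated Δ*top1* replicate also ended its call (adjusted p between 0.130 and 0.293, limma).

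The other 2 genes did not pass the test between the treated strains. *top2* was at 2138 and 2175 normalized counts in Δ*top1* and at 1786 and 1883 in wild-type (log2 0.23, 95% interval 0.02 to 0.45, adjusted p = 0.112, limma). It passed when libraries were rescaled to the same total (log2 0.38, adjusted p = 0.0167) or the same upper quartile (adjusted p = 0.0592), and without either untreated wild-type replicate (adjusted p = 0.0611 and 0.0614, limma in each). *tdp1* was at 624 and 566 against 565 and 515 (log2 0.14, 95% interval -0.08 to 0.36, adjusted p = 0.317, limma). With *top1*, 4 of the 6 genes were called, 3 higher and 1 lower, where 17.1% of all genes were called higher and 14.7% lower. Rescaled to the same total, all genes split into 1502 higher and 406 lower in place of 856 and 739, around a median of 0.16.

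When the strains were compared over both conditions, *rqh1* was the 1 gene called higher in Δ*top1* (log2 0.31, SE 0.07, adjusted p = 0.0286, limma), beside *top1* called lower. It stayed under the 2-fold limit, which 0.857% of all genes passed in the higher direction. The background was 11.2% of all genes called higher and 7.63% lower, or 742 and 211 genes in place of 564 and 383 after rescaling to the same total. The call of *rqh1* was lost without the first untreated Δ*top1* replicate (log2 0.30, adjusted p = 0.123) and without the first treated Δ*top1* replicate (log2 0.29, adjusted p = 0.109, limma in each). Values that missed the threshold were 0.18 for *top2* (adjusted p = 0.118), 0.14 for *top3* (adjusted p = 0.324), 0.31 for *rmi1* (adjusted p = 0.108) and -0.01 for *tdp1* (adjusted p = 0.913, limma in each). Of these, *top2* passed without the second untreated wild-type replicate (adjusted p = 0.0541) or with the same total (adjusted p = 0.0395) or upper quartile (adjusted p = 0.0888), and *rmi1* with no variance trend (adjusted p = 0.0706) or without the second treated Δ*top1* replicate (adjusted p = 0.0836, limma in each).

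Whether the 2 strains responded to H2O2 by different amounts was tested as an interaction term, and 0 of the 6 genes were called by limma, edgeR or DESeq2, while 2.13% of all genes were called higher and 1.83% lower. *top3* had an interaction of 0.54 (95% interval 0.14 to 0.95, adjusted p = 0.165) and *rqh1* one of 0.39 (95% interval 0.09 to 0.69, adjusted p = 0.172, limma in each). That of *top1* was -0.41 (95% interval -0.80 to -0.03, adjusted p = 0.231, limma). Each of these had an unadjusted p under 0.05 in limma, a cut at which all genes were not counted. The interaction was 0.29 for *rmi1* (95% interval -0.22 to 0.79), 0.30 for *tdp1* (95% interval -0.004 to 0.61) and 0.10 for *top2* (95% interval -0.20 to 0.41). With these 3 tools the smaller falls in Δ*top1* were not shown to differ from those in wild-type cells.

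**Figure D3:**
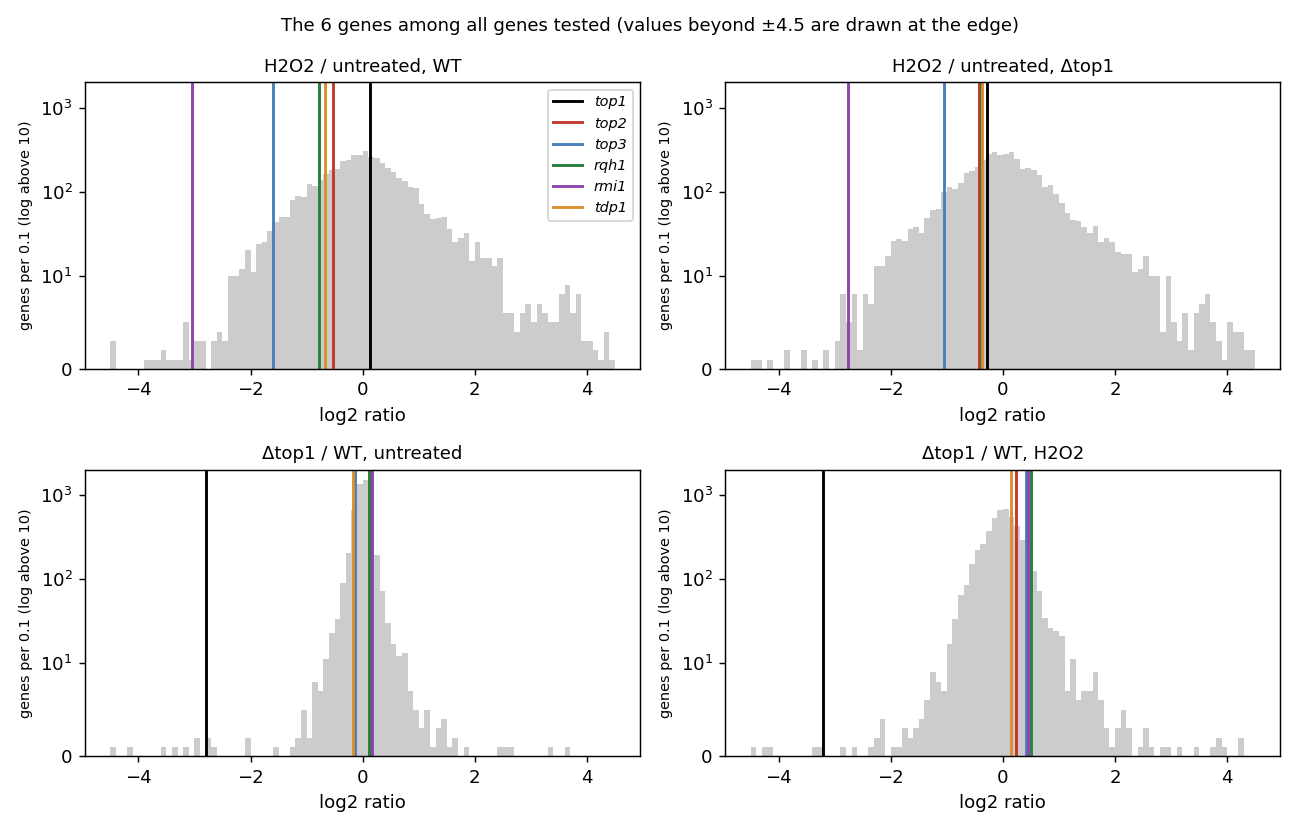
Histograms of the log2 ratios of the 5019 genes tested (grey, genes per bin of 0.1 on an axis that is logarithmic above 10, with values past 4.5 drawn at the edge) and coloured lines at the 6 genes. In the upper panels *rmi1* stands in the lower tail, with 16 genes below it in wild-type and 22 in Δ*top1*, and in the lower panels *top1* stands apart from the other 5 genes, with 8 genes below it untreated and 4 treated.

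Per kilobase of annotated transcript, *top1* was the most abundant of the 6 in untreated wild-type cells, at 745 ± 46.8 normalized counts per kb (SD, n = 2), followed by *top2* at 527 ± 63.3. *top3* at 363 ± 11.1, *rqh1* at 355 ± 15.2 and *tdp1* at 353 ± 2.16 did not differ beyond their spread, and *rmi1* was lowest at 156 ± 16.4. After H2O2 the wild-type order was *top1* at 819 ± 128, *top2* at 363 ± 13.6, *tdp1* at 222 ± 14.5 and *rqh1* at 207 ± 20.5, the last 2 overlapping, then *top3* at 120 ± 15.1 and *rmi1* at 18.6 ± 0.441. Over all 8 libraries 34.7% of 5003 genes with a known length had a lower mean per kb than *top2*, and 4.82% had a lower one than *rmi1*. The order depends on the length used, because 1945 of the 2653 transcript bases of *rmi1* and 823 of the 2434 of *tdp1* are noncoding. Per kilobase of coding sequence *rmi1* reached 585 ± 61.6 in untreated wild-type cells, close to *top2* at 597 ± 71.7. On that length *tdp1*, at 533 ± 3.27, stood above *top3* at 402 ± 12.3 and *rqh1* at 371 ± 15.8, and after H2O2 it was at 335 ± 21.8 against 215 ± 21.4 for *rqh1*.

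Because the 3 subunits of the Top3 complex fell by different amounts, their ratios shifted within each library. The ratio of *rmi1* to *rqh1* normalized counts was 0.311 and 0.252 in untreated wild-type cells and 0.0545 and 0.0607 after H2O2. In Δ*top1* it was 0.297 and 0.283 untreated and 0.0588 and 0.0527 treated, so that the strains lay close together in each condition. The ratio of *top3* to *rqh1* went from 0.513 and 0.504 to 0.246 and 0.339 in wild-type and from 0.432 and 0.424 to 0.283 and 0.259 in Δ*top1*. Between the enzymes that relax twisted DNA, the ratio of *top2* to *top1* in wild-type cells passed from 1.238 and 1.343 untreated to 0.887 and 0.749 treated. A ratio within a library does not depend on its scaling.

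Overlapping genes limit what the counts of *rmi1*, *top3*, *tdp1*, *top2* and *top1* show. In the RefSeq annotation of assembly ASM294v3, 2511 of the 2653 transcript bases of *rmi1*, including all 708 coding bases, are covered by *myh1*, which lies on the opposite strand and encodes a DNA glycosylase that removes adenine paired with oxidised guanine. *top3* shares 118 bases with *rrp42* on the opposite strand, which encodes a subunit of the RNA exosome, and 39 bases with *bag101* on its own strand. Annotated noncoding RNAs that are not in the deposited table lie opposite *top1*, *top2*, *top3* and *tdp1*, and *rqh1* has no annotated overlap. A single such RNA covers 94.6% of the *top3* transcript and 79.3% of that of *tdp1*. The longest overlap of this kind is 52.3% of the transcript for *top2* and 44.0% for *top1*. The libraries keep the strand, but the strand setting of the counting is not given in the sources used here, so reads of such pairs may not have been told apart.

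The changes of the overlapping genes were set beside those of *rmi1* and *top3*. *myh1* had 1089 and 1084 normalized counts in untreated and 772 and 733 in treated wild-type cells, a fall of 1.44-fold (log2 -0.53, adjusted p = 0.000564, limma). In Δ*top1* it went from 1207 and 1152 to 874 and 827 (log2 -0.47, adjusted p = 0.00112, limma). The treated *rmi1* counts of 48.4 to 73.5 were thus read beside *myh1* counts of 733 to 874. *rrp42* fell 1.69-fold in wild-type (log2 -0.75, adjusted p = 0.000124, limma) and 1.93-fold in Δ*top1* (log2 -0.95, adjusted p = 3.2e-05, limma). Its fitted fall was the larger in Δ*top1*, and that of *top3* was the larger in wild-type. Neither strain difference was called (interaction -0.20, adjusted p = 0.446, for *rrp42* and 0.54, adjusted p = 0.165, for *top3*, limma in each). Whether *rrp42* and *top3* differed from each other in this was not tested. The same-strand neighbour *bag101* was at 1429 and 1587 normalized counts in untreated wild-type, 2070 and 2245 in treated wild-type, 1507 and 1536 in untreated Δ*top1*, and 2547 and 2565 in treated Δ*top1*. It rose with H2O2, 1.43-fold in wild-type (adjusted p = 0.000742) and 1.68-fold in Δ*top1* (adjusted p = 8.8e-05), and like *top3* it was called higher in treated Δ*top1* than in treated wild-type (log2 0.25, adjusted p = 0.0737, limma in each). The part that reads of overlapping genes had in the counts of *rmi1*, *top3*, *tdp1*, *top2* or *top1* was not tested.

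**Figure D4:**
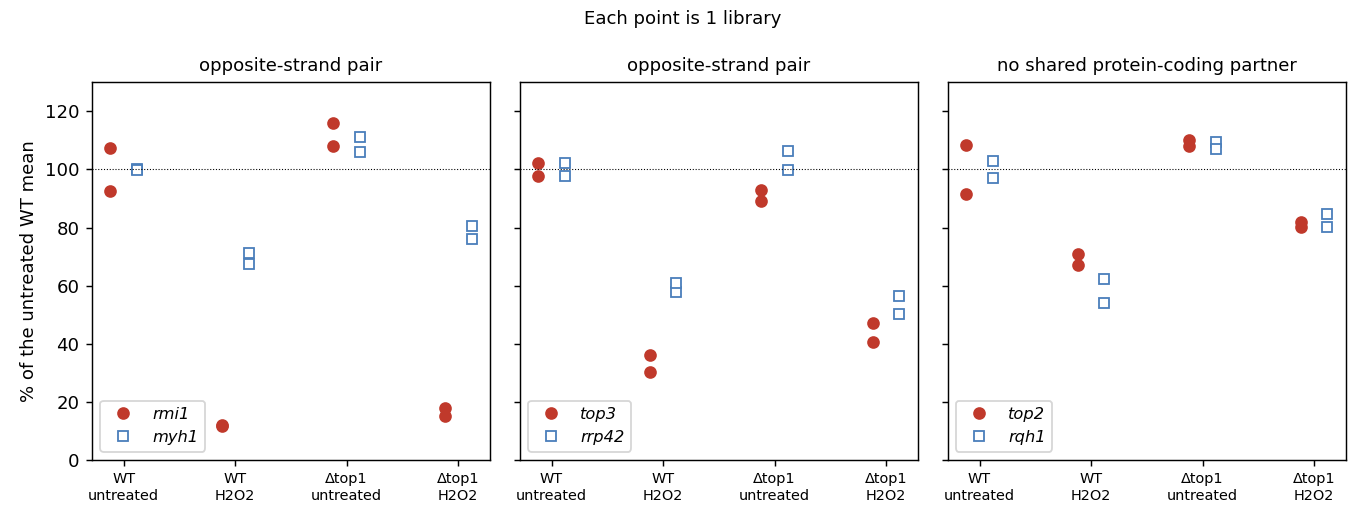
Normalized counts of each library as a percentage of the untreated wild-type mean (y axis, from 0) for *rmi1* with *myh1*, *top3* with *rrp42*, and, with no protein-coding overlap, *top2* and *rqh1*, grouped on the x axis by strain and treatment. *rmi1* drops far below *myh1* in the 4 treated libraries, where *rmi1* had 48.4 to 73.5 normalized counts and *myh1* 733 to 874.

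The genes on both sides of *top1*, each on its strand, were read because the deletion lies between them. *vps33*, which encodes a protein of vacuolar sorting and lies upstream, had 1725 and 1859 normalized counts in untreated wild-type and 2031 and 2145 in untreated Δ*top1* (log2 0.22, adjusted p = 0.925, limma). After H2O2 it had 2240 and 2566 in Δ*top1* against 1780 and 1931 (log2 0.37, adjusted p = 0.0312, limma). That call was lost without the first treated wild-type replicate (adjusted p = 0.120) or the second treated Δ*top1* replicate (adjusted p = 0.127, limma in each). SPBC1703.13c, which lies downstream, had 9659 and 10163 in untreated wild-type and 13478 and 13349 in untreated Δ*top1*, without overlap (log2 0.44, 95% interval 0.19 to 0.69), yet it did not pass the test over all genes (adjusted p = 0.326, limma). DESeq2 on the recovered reads did call it (adjusted p = 0.0129). After H2O2 it had 18582 and 19944 in Δ*top1* against 17165 and 19642, and the groups overlapped (log2 0.07, adjusted p = 0.687, limma). It was called there only with the same total (log2 0.22, adjusted p = 0.0905), among the 20 alternatives. In each condition by itself the fitted ratios of both neighbours were between 1.05-fold and 1.35-fold. With both conditions joined, both were called higher in Δ*top1*, *vps33* by 0.30 on the log2 scale (adjusted p = 0.0337) and SPBC1703.13c by 0.25 (adjusted p = 0.0752, limma in each), where 11.2% of all genes were called higher. The first call was lost without either untreated Δ*top1* replicate (adjusted p = 0.114 and 0.122) and the second when any 1 of the 8 libraries but the second treated wild-type one was left out (adjusted p between 0.107 and 0.243, limma).

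Around the 6 genes, 51 partner genes in 5 lists were looked up, of which 49 could be tested. The name *wss1* was not found in the table, and *fub2*, which encodes a subunit of the SUMO-activating enzyme, was below the minimum mean. In wild-type cells H2O2 moved 13 of the 49 higher and 23 lower (background 36.4% and 35.6% of all genes), with a median of -0.24 beside 0.0028 over all genes. In Δ*top1* it was 17 higher and 18 lower (35.9% and 34.9%), with a median of -0.08. Rescaled to the same total, 6 were higher and 34 lower in wild-type, as were 10 and 23 in the deletion strain. With the deposited scaling, each of the 5 lists held genes called in both directions in each strain.

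Among 12 genes of recombination and junction processing, 4 rose and 6 fell in wild-type cells. The largest change was that of *eme1*, which encodes the partner of the junction-cutting nuclease Mus81. It went from 346 and 412 normalized counts to 63.2 and 68.3 in wild-type (log2 -2.50, SE 0.16, adjusted p = 2.9e-06, limma) and from 398 and 351 to 127 and 110 in Δ*top1* (log2 -1.65, adjusted p = 3.0e-05, limma). *mus81* itself, named after its values were seen, went the other way, from 792 and 935 to 1430 and 1540 in wild-type (log2 0.78, adjusted p = 0.000411, limma). *rad54*, which encodes a DNA-dependent motor protein of recombination, rose from 756 and 928 to 2514 and 2254 (log2 1.51, adjusted p = 7.3e-06, limma). *sfr1*, for an accessory protein of recombination, fell by 0.91 on the log2 scale (adjusted p = 0.000705, limma).

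Of 11 tested genes that process DNA ends and protein adducts, 2 rose and 5 fell in wild-type cells. *ctp1*, whose product starts the trimming of broken ends, rose by 0.79 on the log2 scale in wild-type (adjusted p = 0.00308) and by 1.40 in Δ*top1* (adjusted p = 0.000115, limma in each). *mre11*, which encodes the nuclease that Ctp1 works with, fell in both strains (log2 -0.74, adjusted p = 0.000198, and -0.52, adjusted p = 0.00152, limma). *slx1*, for a structure-specific nuclease subunit, fell by 0.51 in wild-type (adjusted p = 0.0283, limma), a call lost without the second untreated replicate (adjusted p = 0.177).

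The SUMO pathway marks trapped topoisomerases and other proteins for removal, and of its 10 tested genes 2 rose and 5 fell in wild-type cells. *ulp2*, for a SUMO protease, fell (log2 -0.80, adjusted p = 5.1e-05), as did *slx8*, for a SUMO-targeted ubiquitin ligase (log2 -0.52, adjusted p = 0.00529, limma in each). *nse2*, for a SUMO ligase of the Smc5-Smc6 complex, rose (log2 0.52, adjusted p = 0.0054, limma), which did not hold after rescaling to the same total (adjusted p = 0.335). Of 14 genes of the SMC complexes, which fold and hold chromosomes together, 4 rose and 6 fell. The condensin genes *cnd1* (log2 -1.25, adjusted p = 1.2e-05) and *cut3* (log2 -1.03, adjusted p = 6.4e-05) fell and the cohesin gene *psm1* rose (log2 1.08, adjusted p = 8.6e-06, limma in each), from 1333 and 1465 to 2899 and 3029 normalized counts. The 2 meiotic genes with homology to topoisomerase VI were opposed, *rec12* falling (log2 -0.85, adjusted p = 0.00906) and *rec6* rising (log2 0.78, adjusted p = 0.000748, limma in each).

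**Figure D5:**
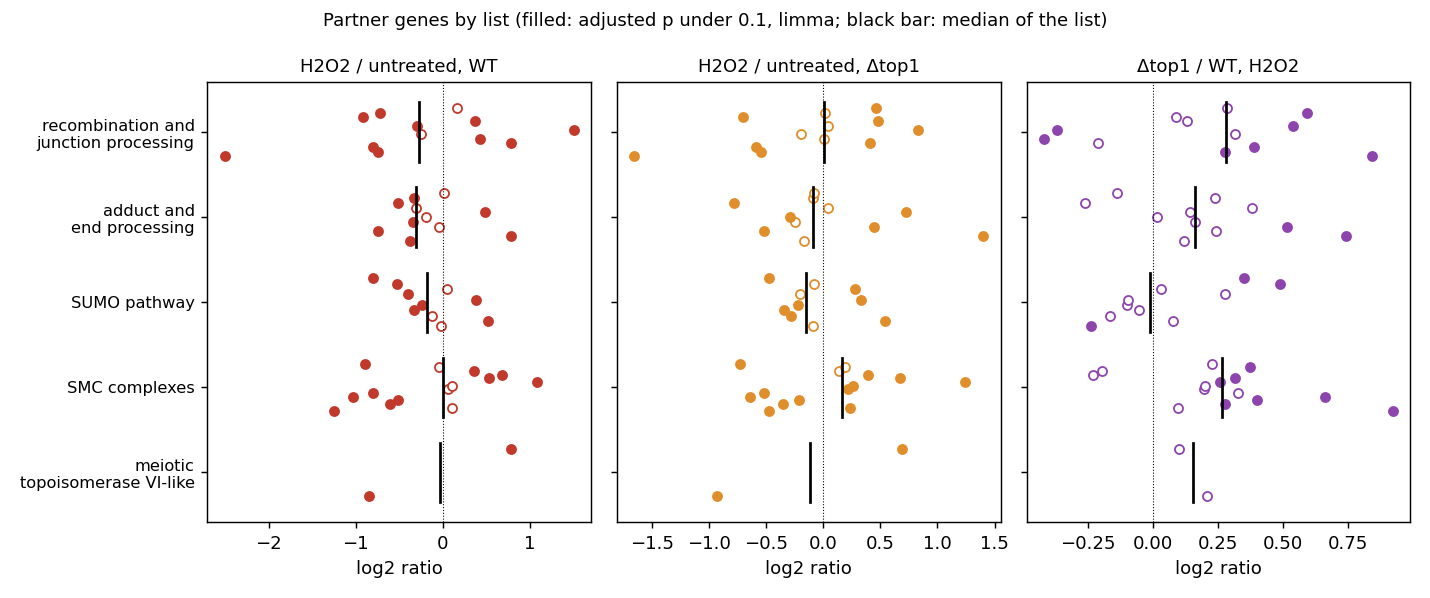
Log2 ratios (x axis) of the 49 tested partner genes in 5 lists (rows), filled where the limma adjusted p was under 0.1, with a black bar at the median of the list, for the H2O2 response of each strain and for the treated strains against each other. The scales of the panels differ. In the left and middle panels each list has points on both sides of 0, and in the right panel 16 genes are called higher and 3 lower in Δ*top1*.

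Between the untreated strains 0 of the 49 partner genes were called by limma, edgeR or DESeq2, where limma called 0.279% of all genes higher and 0.339% lower. With limma 2 of the 49 had an unadjusted p under 0.05, a cut at which all genes were not counted. Between the treated strains 16 were called higher in Δ*top1* and 3 lower (background 17.1% and 14.7% of all genes), with a median of 0.21 beside 0.0074 over all genes. These counts rest on few libraries. Without the first treated Δ*top1* replicate 4 were higher and 0 lower, and without the first treated wild-type replicate 9 were higher and 2 lower, while over all genes the 856 higher and 739 lower calls became 234 and 185 or 571 and 467. Without the second treated replicate of either strain 1 was lower, and with the same total 25 were higher and 1 lower. The condensin gene *cnd1* was highest above wild-type, at 1316 and 1225 normalized counts in treated Δ*top1* against 652 and 687 (log2 0.92, SE 0.10, adjusted p = 0.00167, limma), followed by *eme1* (log2 0.84, adjusted p = 0.0113), *ctp1* (log2 0.74, adjusted p = 0.0209) and *cut3* (log2 0.66, adjusted p = 0.00797, limma in each). These 4 kept their call under each of the 20 alternatives.

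Other partner genes called between the treated strains were less stable. *srs2*, for an anti-recombination helicase (log2 0.59, adjusted p = 0.0395), *rad55*, for a recombination protein (log2 0.54, adjusted p = 0.0152), *nbs1*, for a partner of Mre11 (log2 0.52, adjusted p = 0.0287), *slx8* (log2 0.49, adjusted p = 0.0287), *ulp2* (log2 0.35, adjusted p = 0.0238) and *cut14*, for a condensin subunit (log2 0.40, adjusted p = 0.0250, limma in each), all lost their call without the first treated Δ*top1* replicate (adjusted p between 0.104 and 0.228). *srs2* and *slx8* lost it also without the first treated wild-type replicate (adjusted p = 0.158 and 0.114), and *nbs1* without the second (adjusted p = 0.111, limma in each). *hus5*, for the SUMO-conjugating enzyme, was lower (log2 -0.24, adjusted p = 0.0961, limma), a call kept under 8 of 20 alternatives and lost without any 1 of the treated libraries or of the untreated Δ*top1* libraries (adjusted p between 0.144 and 0.300). The interaction was called for *cnd1* (log2 0.78, adjusted p = 0.0535) and *rad54* (log2 -0.67, adjusted p = 0.0780, limma in each), that is 1 of the 49 in each direction against 2.13% and 1.83% of all genes, while DESeq2 called 3 higher and 1 lower. The call of *cnd1* was lost without the first untreated wild-type replicate, either untreated Δ*top1* replicate or the first treated Δ*top1* replicate (adjusted p between 0.112 and 0.183). That of *rad54* was kept under 9 of 19 alternatives. It was lost with the same total (adjusted p = 0.123), with no count minimum or no trend (adjusted p = 0.120 in each), and without the first replicate of either wild-type group or any 1 of the 4 Δ*top1* libraries (adjusted p of at most 0.281, limma).

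The genes whose pattern over the 8 libraries was most like that of each member are given as a description only, since the 8 libraries share 4 conditions. For *rmi1* they were SPCC584.13 (Pearson r = 0.998), which went from 931 and 885 normalized counts to 110.0 and 94.4 in wild-type cells, and *rrp6*, for a nuclease of the nuclear exosome (r = 0.998). For *top3* they were *swt1* and *dcc1* (r = 0.997 each), the latter for a factor of sister chromatid cohesion. For *rqh1* they were *clr4*, for the histone H3 lysine methyltransferase of heterochromatin (r = 0.996), and *tea5* (r = 0.993). For *top2* they were *pop100* (r = 0.993) and *rfc1*, for the large subunit of the clamp loader of replication (r = 0.991). For *tdp1* they were *rrn7*, for a factor of RNA polymerase I (r = 0.989), and SPCC622.14 (r = 0.987). The gene closest to *top1* was SPCP20C8.02c (r = 0.982), which had 297 and 254 normalized counts in untreated wild-type cells, 240 and 150.3 in treated ones and between 8.15 and 11.4 in the Δ*top1* libraries, and next was *sdh7* (r = 0.954), whose range was only 562 to 684.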

How the data were processed

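The authors read stranded poly(A) libraries of *S. pombe* from one end, over 50 bases. Per the study's methods, reads were checked with FastQC 0.11.9, quantified against the ASM294v2 transcriptome by Salmon 1.2.1 and imported to DESeq2 1.24.0, whereas the submitters' processing notes name STAR and HTSeq. The deposited signal is a table of normalized counts, in which each library is scaled by its own size factor. In each library 99.98% of values came out as whole numbers of reads, within 0.01 reads, so that reads could be recovered.

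The deposited values were tested with limma 3.58.1 (R 4.3.3) on log2(normalized count + 1), a scale that understates changes of low genes. The fit had 4 group means, all 8 libraries, a variance trend and Benjamini-Hochberg adjustment, two-sided, with calls made where the adjusted p was under 0.1. A second limit was 2-fold, or 1.5-fold between the treated strains. With 2 libraries in each group the smallest p of an exact permutation test is 0.333, and the tests therefore lean on a variance estimated over many genes. On recovered reads edgeR 4.0.16 called 1758 genes higher and 1863 lower with H2O2 in wild-type, and DESeq2 1.42.0 called 1773 and 1694. The other alternatives were a pseudocount of 0.5 or 5, a minimum mean of 50 or none, libraries brought to 1 common total or upper quartile, no trend, a replicate block, only the compared groups, an adjusted p under 0.05, and each library left out. Those for partner and neighbour genes were added after the data were seen.

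The text names the 6 members, for each the 2 tested genes with the highest Pearson coefficient, the neighbours of *top1*, and up to 3 genes per partner list with the largest change among those called. Members and lists were chosen with earlier results of these data known. Names, strands, lengths and overlaps came from RefSeq ASM294v3 (5129 of 5165 identifiers matched), and as the authors' build differs, no coordinates or sequences are given. No 50-base word of a member was found in another gene on the same strand. Fits were tested on simulated data.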

Additional observations from a re-analysis of the deposited data

How the results depend on the processing

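Over the 6 genes and 6 comparisons, 708 single values were recomputed under the alternatives. Direction and side of the threshold were kept in 666, the call was lost in 20 and gained in 15, and 7 changed sign. The sign changes were those of values near 0. *top1* in wild-type cells with H2O2 became -0.24 with the same total and -0.17 with the same upper quartile, and ranged from -0.031 to 0.289 with 1 library left out. *tdp1* between the strains over both conditions became 0.052 with the same total and ranged from -0.048 to 0.023 with 1 library left out. The interaction of *top2* ranged from -0.019 to 0.227 with 1 library left out. Outside these 708 values, the treated strain difference of the neighbour SPBC1703.13c ranged from -0.029 to 0.165 with 1 library left out. The cause was not tested. Of the 6 genes, the number called between the treated strains was 2 with only the compared groups in the fit, and from 2 to 5 with 1 library left out. Over both conditions it was from 1 to 3 with 1 library left out. Deviations of same-numbered libraries correlated at 0.066 to 0.617 across genes, but 2 shared numbers per pair of groups do not show pairing. When replicate number entered as a block, 4 genes were called over both conditions (*top2* and *rmi1* added) and 2 were called for the interaction (*top3*, adjusted p = 0.0861, and *rqh1*, adjusted p = 0.0847, limma), *top2* also passed between the treated strains (adjusted p = 0.0578), and no other call of the 6 genes changed. Of the 49 partner genes the block called 22 higher and 5 lower between the treated strains in place of 16 and 3, and 5 and 3 for the interaction in place of 1 and 1. It also called SPBC1703.13c higher between the untreated strains (adjusted p = 0.0715, limma). Over all genes the block called 33 higher and 35 lower between the untreated strains in place of 14 and 17, 1178 and 1121 between the treated strains in place of 856 and 739, 884 and 800 over both conditions in place of 564 and 383, and 431 and 448 for the interaction in place of 107 and 92. DESeq2 called 28 and 32 between the untreated strains and 150 and 222 for the interaction, and rescaling to the same total gave 228 and 54 for the latter. With the same upper quartile 1206 were higher and 2645 lower with H2O2 in wild-type. Only the compared groups gave 8 and 14 between the untreated strains. An adjusted p under 0.05 left 577 and 471 between the treated strains, 307 and 166 over both conditions and 30 and 15 for the interaction, which had 43 and 36 without a count minimum and 83 and 43 without the trend. With 1 library left out, the calls over all genes ranged from 7 to 14 higher and 11 to 17 lower between the untreated strains, from 234 to 856 and 185 to 791 between the treated strains, from 136 to 534 and 82 to 437 over both conditions, and from 12 to 145 and 6 to 229 for the interaction. With 2 libraries per group and as few as 39 reads for *rmi1*, small differences were not detectable.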
